A study of Homo sapiens with 42 samples.

Results

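The mature miRNAs of A375 cells, a human melanoma line, were compared with those of SHSY5Y cells, a human neuroblastoma line, in 23 of the 42 small RNA libraries of the series. The rule took every fraction library of both lines, 12 of A375 and 11 of SHSY5Y, and left out 1 near-empty SHSY5Y library of 31 counts. Each line was grown to subconfluence and to confluence and split into cytoplasm and nucleus, so each library belongs to 1 of 4 groups: subconfluent cytoplasm, confluent cytoplasm, subconfluent nucleus or confluent nucleus. Every group held 3 libraries per line, except the confluent nucleus of SHSY5Y with 2. Both lines were labelled wild type and untreated. A375 cells were kept in DMEM and SHSY5Y cells in RPMI, each with fetal bovine serum and penicillin-streptomycin. The A375 libraries were amplified as 1 pool and the SHSY5Y libraries as another, so line, medium and library pool cannot be told apart. Each line is a single established cell line, and the labels do not say whether the replicates came from separate cultures, so the p-values measure the spread between these libraries, which may be technical.

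MicroRNAs are short RNAs cut from hairpin precursors by Drosha and Dicer and loaded into Argonaute (AGO) proteins, where the seed, bases 2 to 8, selects target mRNAs. Hairpins that lie close together are often cut from a common primary transcript, and many miRNAs are encoded at several loci. Melanocytes and the sympathetic neurons from which neuroblastoma is thought to arise both descend from the neural crest. In melanoma, miR-221 and miR-222 are known as repressors of the cell cycle inhibitor p27 and of the receptor KIT, and in neurons miR-124, miR-9, miR-137 and miR-218 are among the best-known miRNAs.

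The sequences below are those of the miRNAs on which the comparison turns, with the seed in capitals, from RefSeq on GRCh38.p14. The first set was higher in A375 and is shown with the relatives that share a seed, since relatives with the same seed differed in how far apart the lines were.
miR-221-3p: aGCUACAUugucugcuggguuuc
miR-222-3p: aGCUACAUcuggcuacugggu
miR-100-5p: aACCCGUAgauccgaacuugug
miR-99a-5p: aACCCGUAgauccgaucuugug
miR-99b-5p: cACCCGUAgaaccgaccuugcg
miR-125b-5p: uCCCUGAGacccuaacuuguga
miR-125a-5p: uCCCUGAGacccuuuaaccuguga
let-7a-2-3p: cUGUACAGccuccuagcuuucc
miR-125b-1-3p: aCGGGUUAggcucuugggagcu
miR-146a-5p: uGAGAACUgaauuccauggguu
miR-31-5p: aGGCAAGAugcuggcauagcu

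The second set was lower in A375. miR-199a-3p and miR-199b-3p are the same sequence under separate names, and how shared reads were divided between them is not given in the sources used here.
miR-214-3p: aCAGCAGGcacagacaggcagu
miR-199a-5p: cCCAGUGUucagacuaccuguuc
miR-199a-3p: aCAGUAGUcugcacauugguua
miR-199b-3p: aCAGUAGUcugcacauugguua
miR-137-3p: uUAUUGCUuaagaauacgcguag
miR-375-3p: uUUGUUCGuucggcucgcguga
miR-218-5p: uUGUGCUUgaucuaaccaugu

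The libraries were shallow. The 12 A375 libraries held 9816 to 32617 counts (median 19076.5) and the 11 SHSY5Y libraries held 11160 to 53775 (median 31394). Levels are given as CPM, counts per 1000000 after TMM scaling, and before that scaling 1 count was worth 18.6 to 101.9 CPM depending on the library. A library at 0 CPM held no count, which allows up to 3 counts, or 55.8 to 305.6 CPM, for counting error only. Of 2656 miRNA entries, 397 reached 10 counts in 3 or more libraries and were tested with edgeR's quasi-likelihood test, with the 4 groups as a block and Benjamini-Hochberg adjustment over the 397 entries at a threshold of 0.05. Every log2 fold change is A375 over SHSY5Y.

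A375 and SHSY5Y differed in 220 of the 397 tested miRNAs, in both directions. The MIR100HG miRNAs, miR-221, miR-222, miR-146a and miR-31 were far higher in A375, and miR-214, miR-199a and the neural miRNAs miR-137, miR-375, miR-124 and miR-218 were far lower. Of 15 tested entries of the neural list, 9 were lower in A375, 1 was higher and 5 did not pass. miR-214, miR-199a, miR-137, miR-375 and miR-124 reached 10 counts in 3 libraries through SHSY5Y alone, and miR-146a through A375 alone, which favoured those calls. In these bulk libraries a lower level in every cell and a smaller share of cells with the miRNA cannot be told apart. By this test 98 entries (24.7%) were higher in A375 and 122 (30.7%) were lower, and 177 did not pass. The log2 fold change was above 1 in 74 of the higher entries and below -1 in 102 of the lower ones, and it passed 3 in 17 and -3 in 21. The median over all 397 entries was -0.24. With library totals in place of TMM scaling the median was -0.35, and 89 entries were higher and 141 lower. The libraries of the lines did not overlap at all in CPM for 31 entries (7.81%), 16 of them higher in A375 and 15 lower. The 12 largest differences in each direction among these, with a mean of at least 500 CPM in the higher line, were taken as the named miRNAs. Since they were chosen for not overlapping, their direction in each group was fixed by the choice. Of the 24, 23 passed the test in every group and miR-6515-3p in 3 of them, which is a description of the chosen miRNAs.

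The first principal component of log2 CPM held 39.4% of the variance, and all A375 libraries lay at 3.54 or above on it and all SHSY5Y libraries at -5.68 or below. The second component held 23.5% and spread the groups within each line. The nearest library by correlation over entries was of the same line and group for 23 of 23 libraries. The median correlation was 0.93 within a line and group and 0.81 between groups of a line. Between the lines it was 0.63 within a group and 0.66 across groups. These correlations are across entries, which are not independent replicates.

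**Figure D1:**
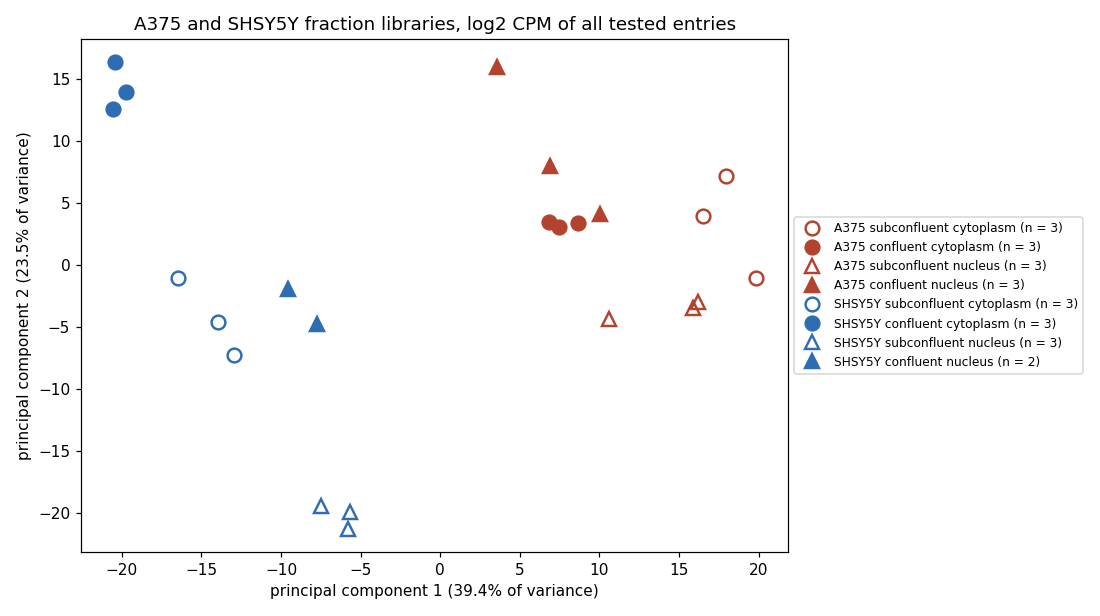
Each point is 1 library on principal components 1 and 2 of log2 CPM over the tested entries, A375 in red and SHSY5Y in blue, circles for cytoplasm, triangles for nucleus, filled for confluent. The lines separate along component 1, which holds 39.4% of the variance, and the SHSY5Y groups spread furthest along component 2, which holds 23.5%.

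A set of A375-high miRNAs came from MIR100HG, a long non-coding RNA gene on chromosome 11 whose introns carry the hairpins of miR-100, let-7a-2 and miR-125b-1. The human genome holds related trios on chromosome 21, in MIR99AHG (miR-99a, let-7c, miR-125b-2), and on chromosome 19, in SPACA6 (miR-99b, let-7e, miR-125a). Entries that come from the chromosome 11 trio alone were far higher in A375, those of the chromosome 19 trio were modestly higher, and those tested of the chromosome 21 trio did not pass the test. miR-100-5p (chr11:122152275-122152296, minus strand) had 30217, 37512 and 78329 CPM in A375 (lowest, median and highest of 12), against 982, 2022 and 5235 CPM in SHSY5Y (of 11). The lowest A375 library was above the highest SHSY5Y library by a wide margin. The log2 fold change was 4.05 ± 0.22 (SE, edgeR adjusted p = 7.06e-16). miR-100 and its relatives are known to act on the mTOR kinase.

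let-7a-2-3p, the strand opposite let-7a from this hairpin, had 319, 832 and 1769 CPM in A375, against 0, 27.1 and 83.7 CPM in SHSY5Y, where 9 counts were found in 11 libraries. Its log2 fold change was 5.02 ± 0.43. let-7a-3p, the opposite strand of the other let-7a hairpins, had a log2 fold change of only 0.90 ± 0.33. miR-125b-1-3p had 433, 1165 and 3449 CPM in A375, against 0, 47.0 and 93.1 CPM in SHSY5Y (log2 fold change 4.97 ± 0.36), and its chromosome 21 counterpart miR-125b-2-3p had 16 counts in all A375 libraries and 4 in all SHSY5Y libraries, too few to test. miR-100-3p was also higher in A375 (2.94 ± 0.54), with libraries that overlapped. So 4 of 4 entries particular to MIR100HG were higher in A375, against 24.7% over all entries. Of these, let-7a-2-3p, miR-125b-1-3p and miR-100-3p held 9, 14 and 16 counts in SHSY5Y, too few to reach the filter there. They passed it through A375, which favoured a higher call.

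miR-125b-5p, which the hairpins on chromosomes 11 and 21 both give, had 29731, 41455 and 63474 CPM in A375, against 1926, 3197 and 6439 CPM in SHSY5Y (3.55 ± 0.19). miR-125b is known to repress p53 in human cells. miR-99a-5p, with the same seed as miR-100-5p, had mean levels of 4791 CPM in A375 and 3921 CPM in SHSY5Y and a log2 fold change of 0.36 ± 0.25 (adjusted p = 0.22). let-7c-5p was at -0.26 ± 0.23 (adjusted p = 0.357). In the SPACA6 trio miR-99b-5p (0.70 ± 0.23), let-7e-5p (0.60 ± 0.24), miR-125a-5p (1.18 ± 0.19) and miR-125a-3p (1.34 ± 0.48) all passed the test. As families, 3 of 4 tested miR-99/100 entries and 4 of 4 miR-125 entries were higher in A375, and none was lower (medians 1.82 and 2.45). Over all entries 24.7% were higher and 30.7% lower. Members of these families are arms and paralogs from the same loci, so they are not independent. The miR-99/100 family took 3.81 to 8.95% of the counts of an A375 library, against 0.553 to 1.78% of those of an SHSY5Y library.

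**Figure D2:**
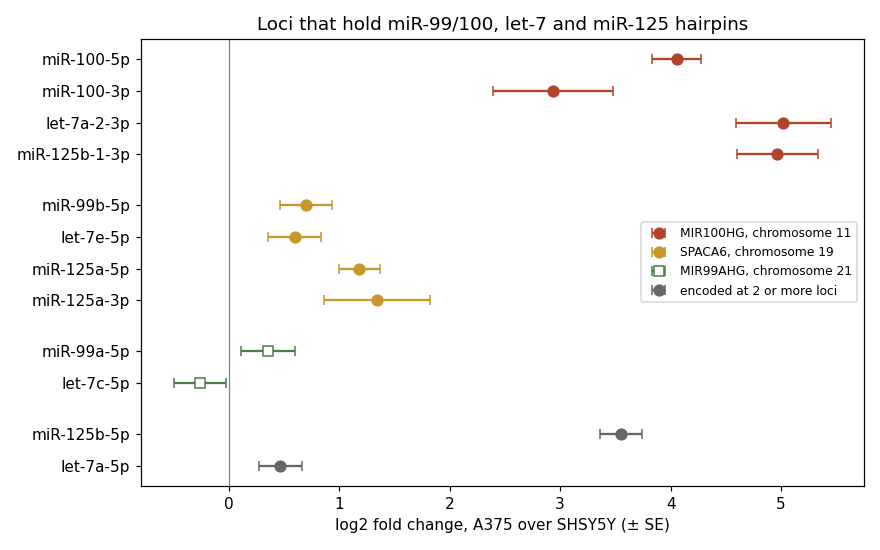
Points are log2 fold changes, A375 over SHSY5Y, with the SE from the edgeR fit over 23 libraries, grouped by the locus that encodes the entry; open squares did not pass the test. The chromosome 11 entries lie between 2.94 and 5.02, the chromosome 19 entries between 0.60 and 1.34, and the chromosome 21 entries at 0.36 and -0.26. Grey points, miR-125b-5p at 3.55 and let-7a-5p at 0.47, come from 2 or more loci.

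miR-221 and miR-222, cut from 1 transcript on the X chromosome (MIR222HG), were both higher in A375. miR-221-3p had 38798, 47865 and 70534 CPM in A375, against 1929, 4759 and 9734 CPM in SHSY5Y (3.43 ± 0.21). miR-222-3p had 6658, 11510 and 22812 CPM in A375, against 196, 379 and 1082 CPM in SHSY5Y (4.64 ± 0.25). Neither miRNA had an A375 library near the SHSY5Y range. Together the hairpins gave 4.20 to 7.66% of an A375 library and 0.252 to 0.948% of an SHSY5Y library. The 3′ arms share their seed, and miR-222-3p stood further apart between the lines than miR-221-3p, a difference between entries that was not tested.

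miR-146a-5p, an NF-kB-induced miRNA that restrains TRAF6 and IRAK1 in innate immune signalling, showed the largest fold change of all 397 entries. It had 4694, 6626 and 26287 CPM in A375, against 0, 27.1 and 140 CPM in SHSY5Y (7.93 ± 0.42, adjusted p = 7.06e-16). SHSY5Y held 10 counts of it in 11 libraries, and A375 held 2204. It was the only tested entry of the list of miR-146 and miR-155. miR-31-5p, whose host gene MIR31HG lies near the tumour suppressor gene CDKN2A, had 3877, 5557 and 10328 CPM in A375, against 217, 847 and 1803 CPM in SHSY5Y (3.05 ± 0.28). Its partner strand miR-31-3p followed at 2.45 ± 0.38. miR-21-5p, abundant in many tumour lines, was also higher but differed less (0.75 ± 0.30). Its means were 20570 CPM in A375 and 15737 CPM in SHSY5Y, and the libraries overlapped widely. Thus 4 of 4 entries of the list of miR-21 and miR-31 were higher (median 2.32), against 24.7% over all entries. The entries of that list are pairs of arms and not independent.

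Other named miRNAs were higher in A375 at lower levels. miR-584-5p, from an intron of SH3TC2, had 340, 804 and 1178 CPM in A375, against 0, 0 and 144 CPM in SHSY5Y, where 4 of 11 libraries held a count (4.44 ± 0.47). miR-455-3p, from an intron of the collagen gene COL27A1, had 276, 440 and 1408 CPM in A375, against 0, 36.1 and 157 CPM in SHSY5Y (3.11 ± 0.40). Both sat in a range where a single count weighs visibly on an SHSY5Y library.

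miR-3180-3p had 228, 746 and 1516 CPM in A375, against 0, 0 and 34.7 CPM in SHSY5Y. SHSY5Y held 3 counts of it and A375 held 156, a ratio of shares of 73.7 with a 95% counting interval of 24.7 to 361 (exact binomial, counting error only). miR-6793-5p, from an intron of DNM2, had 372, 700 and 6375 CPM in A375, against 34.7, 136 and 314 CPM in SHSY5Y (3.19 ± 0.41). The 3 A375 libraries of subconfluent cytoplasm held 6258 to 6375 CPM, and the other 9 held 372 to 810 CPM. Neither entry was detected in AGO immunoprecipitates of HEK293 cells, which are described with the other entries of that class further on.

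**Figure D3:**
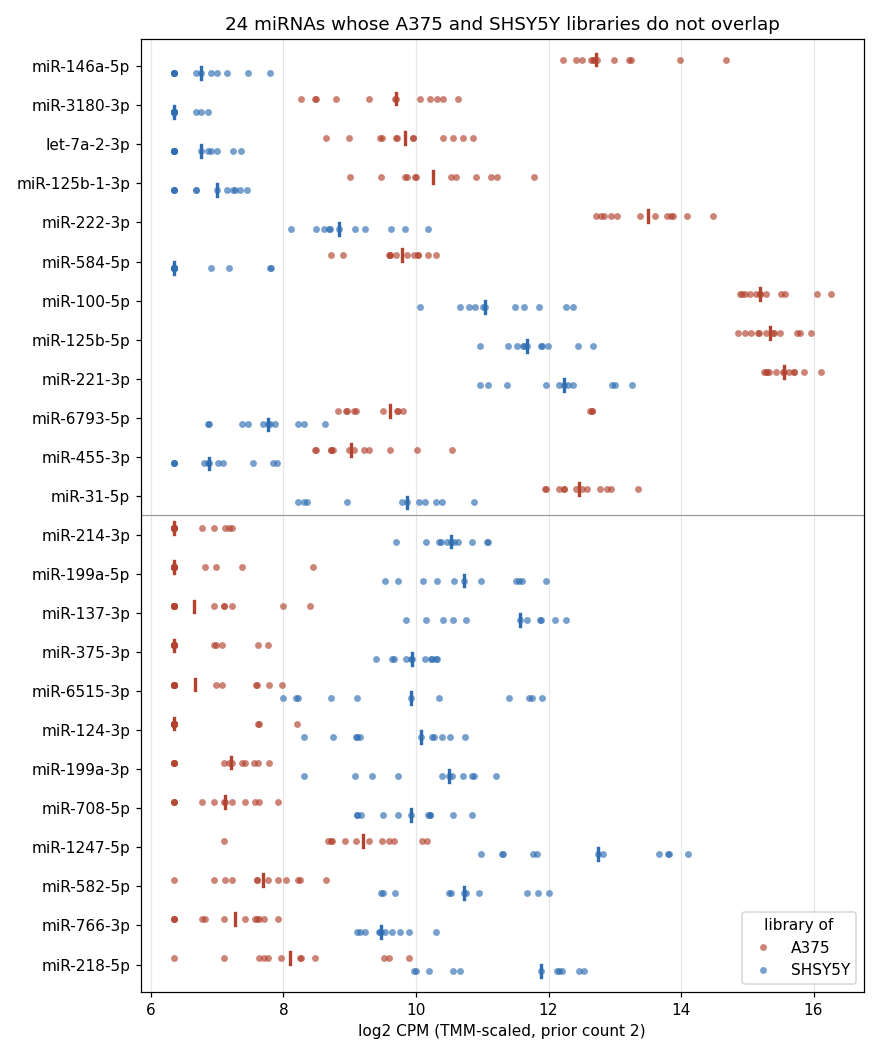
Each dot is the log2 CPM (TMM-scaled, prior count 2) of 1 named miRNA in 1 library, the 12 A375 libraries in red above the 11 SHSY5Y libraries in blue, with a bar at the median of each line; the leftmost column of dots marks libraries with no count. The upper 12 miRNAs are higher in A375 and the lower 12 are lower, with no overlap between the lines in any row, although miR-6515-3p comes close, at 171 CPM in its highest A375 library and 173 CPM in its lowest SHSY5Y library.

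Many neural miRNAs were lower in A375. Of 15 tested entries of the neural list, 9 were lower in A375, 1 was higher and 5 did not pass, against 30.7% lower and 24.7% higher over all entries tested. The median was -1.69, beside -0.24 over all entries tested. Of the lower ones, miR-137-3p, miR-375-3p, miR-124-3p, miR-873-3p, miR-129-5p and miR-598-3p held 6 to 16 counts over the 12 A375 libraries, too few to reach the filter there. They passed it through SHSY5Y, which favoured a lower call and a low median. miR-137-3p, which regulates neuronal differentiation, had 0, 21.4 and 256 CPM in A375, against 840, 2963 and 4819 CPM in SHSY5Y (-4.97 ± 0.43, adjusted p = 4.76e-11). miR-375-3p, a miRNA of neuroendocrine cells and pancreatic islets, had 0, 0 and 136 CPM in A375, against 590, 904 and 1191 CPM in SHSY5Y (-4.67 ± 0.41). Each was found in all 11 SHSY5Y libraries and in 6 and 5 of the 12 A375 libraries.

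miR-124-3p, among the most abundant miRNAs of mature neurons, had 0, 0 and 213 CPM in A375, against 237, 1003 and 1623 CPM in SHSY5Y (-4.42 ± 0.42). Only 3 of 12 A375 libraries held a count of it. miR-218-5p, a motor neuron miRNA encoded in introns of the axon guidance genes SLIT2 and SLIT3, had 0, 196 and 869 CPM in A375, against 919, 3687 and 5874 CPM in SHSY5Y (-3.14 ± 0.36). A375 thus retained some miR-218-5p, with counts in 11 of 12 libraries.

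The remaining neural entries that were lower in A375 were miR-873-3p (-4.56 ± 0.48), miR-129-5p (-2.18 ± 0.51), miR-9-5p (-1.83 ± 0.37), miR-9-3p (-1.69 ± 0.33) and miR-598-3p (-1.63 ± 0.44). miR-9, a miRNA of neural progenitors, was not absent from A375. miR-9-5p had 136, 483 and 1224 CPM in A375, against 840, 2714 and 4888 CPM in SHSY5Y. In confluent cytoplasm its levels overlapped, at 838 to 1224 CPM in A375 and 865 to 919 CPM in SHSY5Y, and the log2 fold change there was 0.12 ± 0.37 (adjusted p = 0.785). miR-7-1-3p was the neural entry higher in A375 (0.88 ± 0.27). miR-7-5p (0.22), miR-128-3p (-0.08), miR-132-3p (0.37), miR-138-5p (0.24) and miR-149-5p (0.34) did not pass the test.

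The 2 largest falls in A375 among the named miRNAs were in the miR-199/214 group, known from mesenchymal cells and fibroblasts. The primary transcript DNM3OS on chromosome 1 carries miR-214 and the second miR-199a hairpin. miR-214-3p (chr1:172138816-172138837, minus strand) had 0, 0 and 68.9 CPM in A375, against 747, 1400 and 2092 CPM in SHSY5Y (-5.50 ± 0.38, adjusted p = 3.74e-13). miR-199a-5p had 0, 0 and 266 CPM in A375, against 663, 1614 and 3917 CPM in SHSY5Y (-5.23 ± 0.43). Every SHSY5Y library held more of either miRNA than any A375 library did.

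miR-199a-3p had 0, 66.0 and 138 CPM in A375, against 236, 1366 and 2288 CPM in SHSY5Y (-3.92 ± 0.40). miR-199b-3p, the identical sequence from chromosome 9, gave nearly the same counts, 22 in A375 and 445 in SHSY5Y (-3.57 ± 0.47), beside 15 and 437 for miR-199a-3p, so these entries are uncertain as separate miRNAs. miR-199b-5p, whose sequence differs from that of miR-199a-5p, was also lower (-2.21 ± 0.38), without overlap. All 5 tested entries of the mesenchymal list were lower in A375, against 30.7% over all entries tested, with a median of -3.92. They held 6 to 30 counts over the A375 libraries, too few to reach the filter there. They passed it through SHSY5Y, which favoured a lower call and a low median. miR-143-3p and miR-145-5p, also of that list, had 5 and 10 counts over the A375 libraries, against 54 and 46 over the SHSY5Y libraries, and did not reach the filter.

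miR-708-5p, from an intron of the teneurin gene TENM4, had 0, 57.3 and 159 CPM in A375, against 472, 894 and 1762 CPM in SHSY5Y (-3.85 ± 0.34). miR-582-5p, from an intron of the phosphodiesterase gene PDE4D, had 0, 125 and 319 CPM in A375, against 629, 1612 and 4056 CPM in SHSY5Y (-3.38 ± 0.33). miR-766-3p had 0, 73.7 and 159 CPM in A375, against 469, 630 and 1176 CPM in SHSY5Y (-3.25 ± 0.37). These 3 miRNAs were detected in the AGO immunoprecipitates of HEK293 cells.

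miR-1247-5p lies in DIO3OS, at the far end of the imprinted domain of 14q32, and was the most abundant in SHSY5Y of the 12 chosen as lower in A375. It had 56.7, 506 and 1068 CPM in A375, against 1948, 6805 and 17527 CPM in SHSY5Y (-3.52 ± 0.35). miR-6515-3p, from an intron of CALR, had 0, 22.7 and 171 CPM in A375, against 173, 895 and 3733 CPM in SHSY5Y (-4.47 ± 0.55). SHSY5Y confluent cytoplasm held the highest miR-6515-3p levels, 3259 to 3733 CPM. miR-224-5p and miR-452-5p, neighbours within the GABA receptor gene GABRE on the X chromosome, were both lower in A375 (-2.64 ± 0.26 and -3.11 ± 0.43), and miR-224-5p without overlap, at 476 to 1362 CPM in A375 and 2756 to 10137 CPM in SHSY5Y.

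Neighbouring hairpins were compared next. Hairpins within 10 kb of each other on 1 strand formed 28 groups that held 80 tested entries. In 8 groups every tested entry passed the test in 1 direction: miR-100 with let-7a-2, the SPACA6 trio, miR-221 with miR-222, and miR-29a with miR-29b-1 were higher in A375, while miR-199a-2 with miR-214, miR-224 with miR-452, miR-374b with miR-421, and miR-98 with let-7f-2 were lower. A further 9 groups had calls in 1 direction but not in every entry, 4 had calls in both directions and 7 had none. Several entries come from more than 1 locus, and their reads cannot be assigned to either. The counts of groups here and of arms below stand beside 24.7% higher and 30.7% lower over all single entries. Some entries reached the filter only through the line where they were higher, which favoured calls in the same direction within groups and arm pairs. Among them, miR-214-3p, miR-199a-5p, miR-199a-3p and miR-452-5p held 6, 10, 15 and 8 counts in A375. let-7a-2-3p and miR-100-3p held 9 and 16 counts in SHSY5Y. Among 53 hairpins with both arms tested, both arms passed in 19, in the same direction in 18. The exception was miR-18a of the miR-17-92 cluster, whose 5p arm was lower in A375 (-0.97 ± 0.33) and whose 3p arm was higher (1.39 ± 0.25).

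The miR-29 family, known repressors of collagens and DNA methyltransferases, had 3 of 4 tested entries higher in A375 and none lower (median 1.91). Over all entries 24.7% were higher and 30.7% lower. miR-29a-3p, from chromosome 7, had 7113, 12082 and 21677 CPM in A375, against 904, 2115 and 5808 CPM in SHSY5Y (2.49 ± 0.26), without overlap. miR-29b-1-5p, from the neighbouring hairpin, was higher by 2.50 ± 0.36, and miR-29b-3p, which hairpins on chromosomes 7 and 1 both give, by 1.32 ± 0.45. miR-29c-3p, with the same seed but encoded on chromosome 1, was at -0.70 ± 0.34 (adjusted p = 0.076) and was lower in A375 with library totals, with RLE size factors, with DESeq2 and with the replicate block. miR-22-5p (2.41 ± 0.41) and miR-193a-5p (1.93 ± 0.28) were also higher in A375 without overlap.

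Several families found in most cell types had few calls, or calls in both directions. The miR-23/27/24 clusters and the family of miR-130, miR-301 and miR-454 had calls in 1 direction. None of 6 tested miR-15/16 entries, 3 of miR-103 and miR-107 or 2 miR-26 entries passed, against 24.7% higher and 30.7% lower over all entries, although 1 miR-15/16 entry was lower with RLE size factors, library totals, DESeq2 or no filter. Their medians were -0.23, -0.27 and -0.47. Of 15 tested let-7 entries, 4 were higher and 3 lower (median -0.20). Of the 9 that carry the let-7 seed, 2 were higher and 3 lower, among them miR-98-5p and let-7f-5p. let-7f-5p comes from chromosome 9 and from HUWE1 on the X chromosome, beside miR-98. Of 17 tested entries from miR-17-92 or a paralogous cluster, 4 were higher and 5 lower (median -0.34), or 8 lower with RLE size factors. The higher ones were miR-92a-3p and the strands miR-17-3p, miR-18a-3p and miR-92a-1-5p. The 6 entries with the seed of miR-17-5p lay between -1.13 and -0.35, and 4 of them were lower in A375. In the miR-23/27/24 clusters 4 of 8 entries were higher in A375, with miR-23a-3p at 1.37 ± 0.22 and a median of 0.58, and none was lower. In the family of miR-130, miR-301 and miR-454 3 of 5 entries were lower, led by miR-301b-3p at -2.50 ± 0.44, with a median of -0.68.

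The counts of the other lists stand against 24.7% higher and 30.7% lower over all entries, and most of these lists have too few tested entries to be read against those shares. Of 10 tested miR-30 entries 3 were higher in A375 (miR-30d-5p, miR-30c-2-3p and miR-30b-3p), none was lower and the median was 0.14. miR-34a-5p, a transcriptional target of p53, was the only tested entry of its family and was higher (1.25). Of 3 miR-181 entries 1 was higher, miR-181a-3p at 2.35 (median 0.47), and of 5 entries of the miR-193 and miR-365 list 1 was higher (median 0.31). In the sensory cluster 1 of 3 entries was lower, miR-182-5p at -0.91 (median -0.68), and of the miR-148 and miR-152 family 1 of 2 was lower, miR-148b-3p at -0.80 (median -0.13). Among miRNAs made without Drosha, miR-320a-3p (0.80) and miR-320b (1.65) were higher and miR-484 (0.06) did not pass. The hypoxia miRNA miR-210-3p (0.22) and miR-372-3p (0.36), of the pluripotency list, did not pass. Of 6 tested entries that overlap other small or ribosomal RNAs, miR-663a (1.15) and miR-4485-3p (1.77) were higher and none was lower (median 0.43).

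The HOX-embedded miRNAs, which lie among the genes of regional identity, had calls in both directions, with 2 of 6 tested entries higher, 3 lower and a median of -0.41, against 24.7% higher and 30.7% lower over all entries. miR-10a-5p, from the HOXB cluster, was higher in A375 (1.56 ± 0.27), and miR-10b-5p, from the HOXD cluster, was lower and did not overlap, at 816 to 3082 CPM in A375 and 3614 to 7107 CPM in SHSY5Y (-1.34 ± 0.23). miR-196b-5p was higher (0.78 ± 0.31), and miR-196a-5p (-0.77 ± 0.33) and miR-615-5p (-1.53 ± 0.40) were lower. Of 7 tested entries of the imprinted 14q32 cluster, 4 were lower and 2 higher (median -1.33), against the same shares over all entries. miR-127-3p, 1 of the higher entries, rested on 1 group, with 1224 to 2086 CPM in the subconfluent cytoplasm of A375 and at most 70.0 CPM in any other library of either line.

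**Figure D4:**
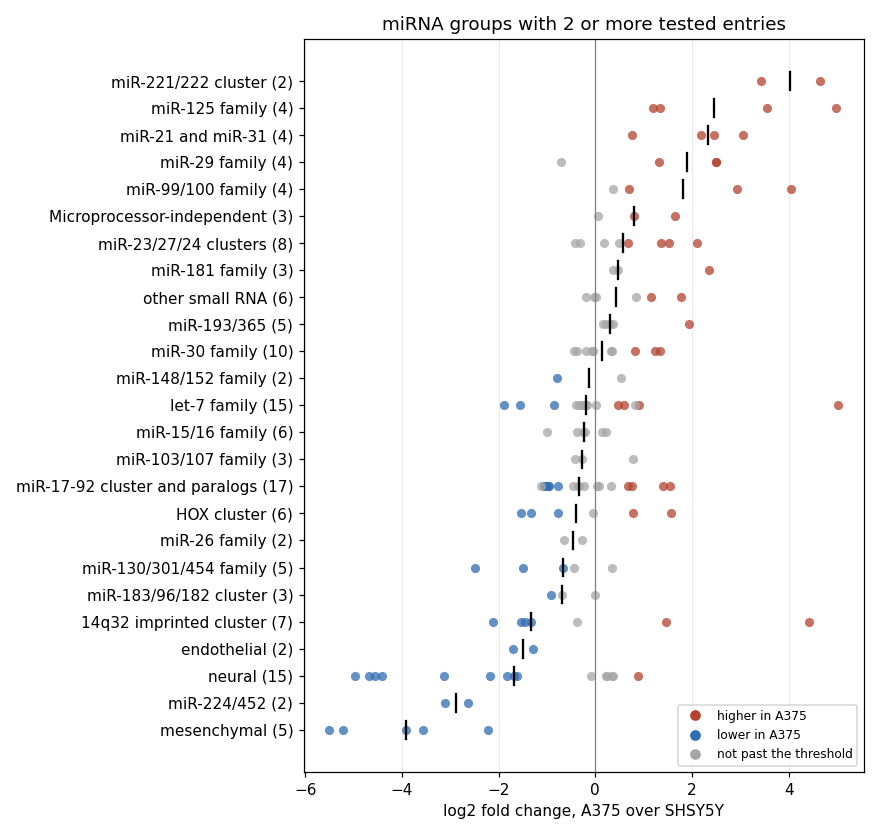
Each point is the log2 fold change, A375 over SHSY5Y, of 1 tested entry of a miRNA group, red where it passed the test as higher in A375, blue where lower and grey where it did not pass, with a bar at the group's median and the number of entries in brackets. The mesenchymal and neural groups have the lowest medians of the groups with 5 or more entries, -3.92 and -1.69, and the cluster of miR-221 and miR-222, with 2 entries, the highest of those drawn, 4.03. All tested mesenchymal entries and most of the lower neural ones had too few counts in A375 to reach the filter there.

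The labelled cell types were checked against their miRNA markers. The melanocyte markers miR-211-5p and miR-204-5p had 2 and 51 counts over the 12 A375 libraries, against 2 and 7 counts over the 11 SHSY5Y libraries, and none of the 4 entries of that list reached the filter. The miR-506-514 cluster, a melanocyte and melanoma cluster, had 41 counts in A375 and 102 in SHSY5Y over 20 entries, none tested. miR-211-5p held at most 1 count in any library, and miR-204-5p was found in 10 of 12 A375 libraries, with up to 20 counts in 1 of them, and in 6 of 11 SHSY5Y libraries. A375 is called melanoma here by its label. Of the markers set for neuronal cells, a shorter list than the neural one, miR-9-5p, miR-9-3p, miR-124-3p, miR-137-3p, miR-218-5p and miR-375-3p were found in all 11 SHSY5Y libraries and were lower in A375, while miR-128-3p, miR-138-5p and miR-7-5p did not pass the test. miR-7-1-3p, of the neural list alone, was higher in A375.

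Markers of other cell types were few. No tested entry belonged to the blood (39 counts in A375, 73 in SHSY5Y over 11 entries), liver (1 and 16 counts over 2), muscle (9 and 27 over 6) or miR-200 and epithelial lists (96 and 125 over 13). Both strands of the endothelial miR-126 were lower in A375 (miR-126-3p -1.30 ± 0.27, miR-126-5p -1.69 ± 0.35), with mean levels of 307 CPM in A375 and 871 CPM in SHSY5Y for miR-126-3p. The mesenchymal list held 0.00461 to 0.0887% of the counts of an A375 library and 0.328 to 0.957% of those of an SHSY5Y library. Its defining members miR-143-3p and miR-145-5p held at most 10 and 8 counts in any library and were found in 4 and 5 of the 12 A375 libraries and in all 11 SHSY5Y libraries, as were miR-199a-5p and miR-214-3p. Whether other cells contributed to the SHSY5Y libraries was not tested.

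miR-92a-3p and miR-19b-3p, both of the miR-17-92 cluster and a paralog, were among the 5 most abundant miRNAs of both lines. By mean CPM the first 5 in A375 were miR-92a-3p, miR-221-3p, miR-100-5p, miR-125b-5p and miR-19b-3p, and in SHSY5Y miR-19b-3p, miR-92a-3p, miR-17-5p, miR-3960 and miR-19a-3p. miR-92a-3p made up 5.72 ± 2.22% of the counts in A375 (SD, n = 12) and 3.70 ± 1.74% in SHSY5Y (SD, n = 11), and its log2 fold change of 0.75 ± 0.18 passed the test (adjusted p = 0.000913). miR-19b-3p made up 3.85 ± 1.15% in A375 and 5.45 ± 2.56% in SHSY5Y (-0.23 ± 0.22, adjusted p = 0.371). miR-17-5p (-0.35 ± 0.20), miR-19a-3p (-0.46 ± 0.27) and miR-3960 (-0.31 ± 0.38) did not pass either, although miR-17-5p was lower in A375 with DESeq2 and with other scalings. The 10 most abundant entries took 31.2 to 41.8% of an A375 library and 23.8 to 37.5% of an SHSY5Y library.

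The line difference was then examined in each group in 1 fit over 8 line-and-group means. Subconfluent cytoplasm gave 85 entries higher (21.4%) and 123 lower (31%) in A375, and confluent cytoplasm 88 higher (22.2%) and 128 lower (32.2%). Subconfluent nucleus gave 69 higher (17.4%) and 92 lower (23.2%), with 40 higher when SHSY5Y subconfluent nucleus replicate 3 was left out. Confluent nucleus gave 47 higher (11.8%) and 39 lower (9.82%). That group has 2 SHSY5Y libraries, and its counts were 26 and 24 without replicate 1 and 25 and 22 without replicate 2 of SHSY5Y, so each of them decided much of the result. With the replicate block, 79 entries were higher there. With library totals in place of TMM scaling, 39 were higher and 61 lower. Of the 220 entries with a line difference, 137 had the same sign in all 4 groups and 29 passed in all 4.

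Whether the line difference depended on the fraction was tested as the effect in the nucleus minus that in the cytoplasm. The study's supplementary profile table gives the names subconfluent cytoplasm and confluent nucleus the other way round in both lines. The names of the deposited columns are used here, and under the other names the effects in these groups would change places, while the interactions by fraction and by confluency below would trade places with reversed sign. By the deposited names the effect was more positive in the nucleus for 74 entries (18.6%) and more negative for 66 (16.6%). The positive entries with the smallest adjusted p, among those with a mean of at least 500 CPM in either line, were miR-4516, miR-6803-5p, miR-4508, miR-4284 and miR-6796-3p. miR-4516 had 1739 to 2213 CPM in A375 subconfluent cytoplasm, against 25620 to 35225 CPM in that of SHSY5Y, while in the subconfluent nucleus it had 4766 to 5529 CPM in A375 and 5789 to 6065 CPM in SHSY5Y. The difference of effects was 3.45 ± 0.33 (edgeR adjusted p = 2.91e-10). miR-6803-5p ranged over 113 to 1054 CPM in A375 cytoplasm and 922 to 8488 CPM in SHSY5Y cytoplasm, and over 584 to 12263 CPM in A375 nuclei and 416 to 2555 CPM in SHSY5Y nuclei (4.73 ± 0.52).

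By the same rule, the negative entries with the smallest adjusted p by fraction were let-7f-5p, miR-4484, miR-98-5p, let-7i-5p and miR-21-3p. let-7f-5p, a let-7 tumour suppressor miRNA, had 1967 to 2600 CPM in subconfluent nuclei of A375, against 17198 to 20672 CPM in those of SHSY5Y, while confluent cytoplasm held 3481 to 5673 CPM in A375 and 2971 to 5463 CPM in SHSY5Y. Its difference of effects was -1.77 ± 0.32. miR-98-5p, its neighbour on the X chromosome, followed at -2.89 ± 0.58. let-7f-5p, miR-98-5p, let-7i-5p and miR-21-3p were detected in the AGO immunoprecipitates of HEK293 cells. Detected entries gave 57 negative calls by fraction in the full fit, but 4 when they were fitted and scaled alone. Whether these miRNAs pass in that fit is not given here.

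Whether it depended on confluency was tested as the effect in confluent minus that in subconfluent cells. It was more positive for 53 entries (13.4%) and more negative for 30 (7.56%), or 46 with the replicate block and 15 without SHSY5Y subconfluent nucleus replicate 3. DESeq2 gave 45 positive and 45 negative. The positive entries with the smallest adjusted p, by the same rule, were miR-29b-3p, miR-193a-3p, miR-96-5p, let-7i-5p and miR-374a-5p. All of these were detected in the AGO immunoprecipitates of HEK293 cells. Detected entries gave 46 positive and 6 negative calls by confluency in the full fit, but 32 and 38 when they were fitted and scaled alone. Whether the miRNAs named here pass in that fit is likewise not given. miR-29b-3p had 4067 to 15778 CPM in confluent A375 libraries, against 629 to 1050 CPM in confluent SHSY5Y libraries, whereas subconfluent libraries held 3605 to 12541 CPM in A375 and 3057 to 12448 CPM in SHSY5Y. The lines overlapped in subconfluent cells and not in confluent ones (3.14 ± 0.44, adjusted p = 2.2e-06). miR-96-5p, of the sensory cluster with miR-182 and miR-183, had 408 to 1300 CPM in subconfluent A375 libraries and 1528 to 10192 CPM in subconfluent SHSY5Y libraries. Confluent libraries held 345 to 1693 CPM in A375 and 275 to 804 CPM in SHSY5Y (3.15 ± 0.47).

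The negative entries with the smallest adjusted p by confluency, by the same rule, were miR-4741, miR-6790-3p, miR-6836-5p, miR-1915-3p and miR-8069. miR-6790-3p reached 11065 to 33786 CPM in the subconfluent cytoplasm of A375, against 136 to 282 CPM in that of SHSY5Y, and 279 to 447 CPM in confluent A375 cytoplasm, against 123 to 196 CPM in that of SHSY5Y (-4.87 ± 0.70). miR-4741 reached 8455 to 14894 CPM in A375 subconfluent cytoplasm, against 423 to 900 CPM in that of SHSY5Y, and had the opposite order in confluent cytoplasm, 503 to 1118 CPM in A375 and 2122 to 3093 CPM in SHSY5Y. miR-6165, which lies in an intron of the neurotrophin receptor gene NGFR and was singled out after its values were seen, had 3401 to 6412 CPM in A375 subconfluent cytoplasm, at most 584 CPM in other A375 libraries and at most 83.7 CPM in any SHSY5Y library (4.64 ± 0.67), and its change with confluency did not pass the test.

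The interactions differed between classes of entries in their counts of calls. AGO1-4 immunoprecipitates (IP) of HEK293 cells in the same series served as a list of AGO-bound entries, 537 that reached 10 counts in 3 or more of its 6 libraries. A miRNA that HEK293 cells do not make is absent from that list, as are miR-137-3p and miR-214-3p. Of the 397 tested entries, 207 were detected in the IP, with a median GC content of 47.8%, and 190 were not, with a median of 66.7%. For the line difference, detected entries gave 56 higher and 54 lower calls, and the others 42 higher and 68 lower. Of the 24 named miRNAs, 15 were detected, 7 of those higher in A375 and 8 of those lower.

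For the interactions the classes parted. By fraction, detected entries gave 7 positive and 57 negative calls and the others 67 positive and 9 negative. By confluency, detected entries gave 46 positive and 6 negative calls and the others 7 positive and 24 negative. In confluent cytoplasm 75 detected entries were higher in A375 and 20 lower, whereas 13 of the others were higher and 108 lower, with medians of 0.68 and -1.38. When only detected entries were fitted and scaled, 9 entries were positive and 4 negative by fraction, 32 positive and 38 negative by confluency, and confluent cytoplasm gave 39 higher and 40 lower. For the line difference that fit gave 59 higher and 61 lower, and 109 of the 110 detected entries called in the full fit kept their call and direction.

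The share of counts in entries not detected in the IP moved with these results. In confluent cytoplasm it was 18.5 to 22.8% in A375 and 62.5 to 68.3% in SHSY5Y. In subconfluent cytoplasm it was 19.8 to 33.0% in A375 and 29.0 to 39.3% in SHSY5Y, in subconfluent nuclei 12.4 to 14.8% in A375 and 9.55 to 11.6% in SHSY5Y, and in confluent nuclei 20.9 to 49.1% in A375 and 23.4 to 31.5% in SHSY5Y. The lines did not overlap in confluent cytoplasm or subconfluent nuclei. Its part in the line difference of single miRNAs was not tested, beyond the fit on detected entries above.

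**Figure D5:**
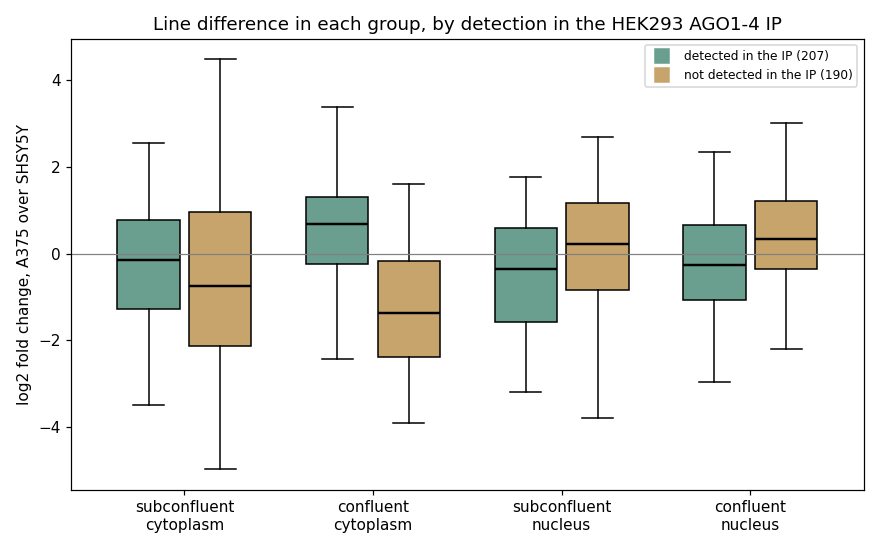
Boxes show the log2 fold change, A375 over SHSY5Y, of the tested entries in each group, split by detection in the AGO1-4 IP of HEK293, with the median, the quartiles and whiskers at the 5th and 95th percentiles. In confluent cytoplasm the medians of the detected and the other entries lie apart, at 0.68 and -1.38, and in the nuclear groups the order of the classes turns round.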

How the data were processed

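Small RNA libraries were made from cytoplasmic and nuclear fractions of A375 and SHSY5Y cells. The authors trimmed adapters with cutadapt, mapped reads with bowtie2 and counted them with bedtools, and the labels name hg38; versions of the mapper and counter, the miRNA annotation and the rule for shared reads are not given in the sources used here. The deposited table holds raw counts, whole numbers per mature miRNA and library, not normalized. Of 2657 entries, 1 with a missing value was left out. The library with 31 counts (SHSY5Y confluent nucleus replicate 3) was left out, and the other 23 held 9816 to 53775 counts.

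Counts were fitted in R 4.3.3 with edgeR 4.0.16 (TMM, quasi-likelihood test, Benjamini-Hochberg) for entries that reached 10 counts in 3 or more libraries. DESeq2 1.42.0, other scalings, no filter, a replicate block, the near-empty library, the IP-detected entries and leaving out each library were tried as alternatives. In simulated data with these library sizes the line difference recovered 90.3% of 2-fold and 100% of 4-fold changes, with 2.61% of calls false. The simulation gave every entry the same spread and changed only abundant entries, equally in each direction. It held no interaction with group and no pairing of libraries. These shares are therefore not the error rates of the calls reported here. Libraries with the same group and replicate number carry the same 3′ adapter in both lines. Their deviations from the group means correlated at 0.14 to 0.35 in all 11 pairs (mean 0.229), so the numbers pair the libraries. The main fit, from which the counts and p-values above come, does not use this pairing. With the replicate block, which does, 200 entries passed for the line difference, 86 higher in A375 and 114 lower.

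Named are the 12 entries with the largest log2 fold change in each direction among those past the threshold without overlap and with a mean of at least 500 CPM in the higher line, the 5 most abundant of each line by mean CPM, up to 5 each way with the smallest adjusted p for each interaction, and list members as examples. The comparison, the lists and this rule were chosen with earlier results of these data known. RefSeq mature sequences matched 2367 entries (89.1%), and host genes come from GENCODE 44 on hg38. The study's supplementary profile table exchanges the names of subconfluent cytoplasm and confluent nucleus, in both lines, against the deposited columns. The names of the deposited columns and labels were used. Under the exchanged names the difference averaged over the 4 groups would stay as it is, and the interactions would trade places with reversed sign.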

Additional observations from a re-analysis of the deposited data

Results flagged for a closer look

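For 54 of the 99 miRNAs described, the difference between A375 and SHSY5Y itself differed between nucleus and cytoplasm or between confluent and subconfluent cells, by edgeR's test of the interaction. Some of the 99 were chosen for the smallest p of these interactions, which raises the count. By fraction 10 were positive and 31 negative, against 74 (18.6%) and 66 (16.6%) of all 397 entries, and by confluency 24 were positive and 9 negative, against 53 (13.4%) and 30 (7.56%). These calls depend on the entries fitted together. Among the 207 entries detected in the AGO immunoprecipitates there were 7 positive and 57 negative calls by fraction in the full fit, but 9 and 4 when those entries were fitted alone, and 46 positive and 6 negative by confluency in the full fit, but 32 and 38 when fitted alone. Group names are those of the deposited columns, and under the names in the study's supplementary profile table the values by fraction and by confluency would trade places with reversed sign. The values below are differences of log2 fold changes, nucleus minus cytoplasm for fraction and confluent minus subconfluent for confluency, so a positive value means that A375 stood relatively higher in the nucleus or in confluent cells.

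Among the miRNAs higher in A375, the excess was smaller in the nucleus for miR-584-5p (-3.19), miR-100-5p (-0.79), miR-31-5p (-1.47), miR-193a-5p (-1.18), miR-23a-3p (-1.26), miR-196b-5p (-1.47) and let-7a-5p (-0.88). It was smaller in confluent cells for miR-6793-5p (-2.34), miR-92a-3p (-0.76), miR-369-3p (-1.24) and miR-6790-3p (-4.87). It was larger in confluent cells for miR-31-3p (1.99). For miR-92a-3p the log2 fold change in confluent nucleus was -0.22. The order of the lines turned round for miR-4741 (-3.72 by confluency), with a log2 fold change of 4.21 in subconfluent cytoplasm and -1.67 in confluent cytoplasm. Both tests passed for miR-221-3p (-0.93 and 0.74), miR-29a-3p (-1.09 and 1.23), miR-29b-3p (-1.42 and 3.14), miR-22-5p (-2.06 and 1.94), miR-22-3p (-1.37 and 0.95), miR-100-3p (-2.69 and 3.59), miR-21-5p (-1.26 and 1.64), miR-21-3p (-2.95 and 3.19) and miR-1915-3p (-1.93 and -4.205), given as the value by fraction and then by confluency. miR-4484 was at -2.56 by fraction.

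Among those lower in A375, the values by fraction were miR-137-3p (-3.30), miR-6515-3p (4.92), miR-1247-5p (2.22), miR-766-3p (2.08), miR-224-5p (-1.41), miR-196a-5p (-1.88) and miR-98-5p (-2.89). The values by confluency were miR-9-5p (2.39) and miR-374b-5p (1.36). Both passed for let-7f-5p (-1.77 and 1.40), miR-18a-5p (-1.38 and 2.02), miR-374a-5p (-0.83 and 1.98), miR-4516 (3.45 and 1.15), miR-4284 (2.57 and 1.93) and miR-8069 (2.39 and -2.27).

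For the remaining miRNAs, the values by fraction were miR-17-5p (-1.05), miR-3960 (2.59), miR-6803-5p (4.73), miR-6796-3p (2.53), miR-99a-5p (-0.98) and let-7c-5p (-1.002), and by confluency miR-19a-3p (1.58), miR-6836-5p (-2.95), miR-7-5p (2.11), miR-132-3p (-1.25) and miR-138-5p (2.14). Both passed for miR-19b-3p (-0.87 and 1.19), miR-4508 (3.54 and 1.79), let-7i-5p (-1.56 and 2.21), miR-193a-3p (-1.44 and 2.84), miR-96-5p (-1.51 and 3.15) and miR-22-3p (-1.37 and 0.95).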

How the results depend on the processing

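No called result among the 220 line differences changed direction under any alternative. Of these calls, 218 were kept with DESeq2, 216 with RLE size factors, 211 with library totals, 219 with the near-empty library, 178 with no filter, 197 with the replicate block and 199 to 217 when 1 library was left out, and 109 of the 110 that are detected in the immunoprecipitates were kept when those entries were fitted alone. The 24 named miRNAs with the largest differences kept their direction and call in every alternative that tested them, 15 of them in the fit on detected entries. Library totals moved the median log2 fold change of the 397 entries to -0.35, against -0.24 with TMM, and RLE size factors moved that of confluent cytoplasm to -0.47, against -0.17.

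With the entries detected in the immunoprecipitates alone, fewer entries were tested: 59 were higher in A375 and 61 lower, with 54 and 53 in subconfluent cytoplasm, 39 and 40 in confluent cytoplasm, 55 lower in subconfluent nucleus and 28 higher in confluent nucleus. By fraction 9 were positive and 4 negative, and by confluency 32 were positive. With no filter on low counts, 235 were lower in A375, 28 were higher in subconfluent nucleus, 49 were positive by fraction and 8 negative by confluency. The replicate block gave 79 higher in confluent nucleus and 46 negative by confluency, and it moved no other count by more than 1.5 times. Library totals gave 61 lower in confluent nucleus, and that group fitted alone gave 27 higher and 8 lower. The cause of these changes was not tested.

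With 1 library left out, 81 to 99 entries were higher in A375 and 108 to 136 lower. The ranges were 40 to 81 higher in subconfluent nucleus, with 40 without SHSY5Y subconfluent nucleus replicate 3, 25 to 62 higher and 22 to 50 lower in confluent nucleus, and 15 to 38 negative by confluency. At 9816 to 53775 counts a library, differences in miRNAs of under about 500 CPM rest on few counts, and 397 of the 2656 entries could be tested.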
